A study of Mus musculus with 6 samples.

Results

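The genes of heparan sulfate assembly and editing were examined in TKO, a mouse ovarian cancer cell line, with and without MNRR1. The set comprised 10 genes, Sulf1, Sulf2, Hs6st1, Hs6st2, Hs2st1, Ndst1, Ext1, Ext2, Gpc1 and Sdc1, out of 49315 rows of the count table. They were taken by gene symbol through their Ensembl identifiers on GRCm38. The genes were chosen on their KO and WT levels in these same libraries as well as on their function, the low Sulf1 level in KO among them. Values of these 10 genes in that comparison are therefore descriptions, and nothing is concluded from how many of them were called.

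Total RNA was sequenced from 3 libraries of MNRR1-knockout TKO cells (KO) and 3 libraries of TKO cells with MNRR1 intact (WT). Both groups carry the triple knockout that gives the line its name, and the labels do not state which genes it affects. The KO libraries share the name of a single clone, so an effect of the knockout and a property of that clone cannot be told apart. The labels do not describe the replicates as separate cultures, so p-values measure the spread between these libraries, which may be technical.

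Heparan sulfate is a sugar chain attached to core proteins at the cell surface and in the matrix, where it binds growth factors, chemokines and morphogens. The chain is started on a linkage sugar, lengthened by the Ext1 and Ext2 proteins, and then sulfated in the Golgi, first on nitrogen by the Ndst enzymes and then at the 2-O, 6-O and 3-O positions. After export, the endosulfatases Sulf1 and Sulf2 remove 6-O-sulfate groups from the finished chain, which changes which ligands it holds. SULF1 is known in ovarian cancer as a gene that is often silenced.

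Sulf1 and Sulf2 encode enzymes of one fold that share an active-site signature. Its cysteine is converted to formylglycine, the residue that attacks the sulfate ester. The coding stretches around this signature are shown because 1 of the pair was nearly silent in KO libraries while the other was not, and because the same signature marks Arsa, a lysosomal sulfatase gene described further on. Capitals mark the 5 codons of the signature, searched as cysteine, any residue, proline or alanine, serine and arginine in the annotated reading frame. All are written 5′ to 3′ in the sense of the gene, from GENCODE M21 transcripts.
Sulf1: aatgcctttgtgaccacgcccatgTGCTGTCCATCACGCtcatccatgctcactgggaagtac
Sulf2: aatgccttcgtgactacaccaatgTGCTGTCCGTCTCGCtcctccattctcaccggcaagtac
Arsa: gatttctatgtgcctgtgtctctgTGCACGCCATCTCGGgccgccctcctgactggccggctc

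The Sulf1 stretch lies at chr1:12796828-12796890 on the plus strand of GRCm38, in exon 5 of its transcript, and the Sulf2 stretch at chr2:166116987-166117049 on the minus strand, in exon 3. The stretch of Arsa, the gene of arylsulfatase A, lies on the minus strand at chr15:89475338-89475545 and spans exons 2 and 3. Sulf1 and Sulf2 were identical at 53 of 63 bases here and at 13 of 15 bases of the signature, whereas Sulf1 and Arsa shared 36 of 63. Over their aligned coding sequences, Sulf1 and Sulf2 were 69.5% identical, and the longest run of identical bases between the transcripts compared was 20. Hs6st1 and Hs6st2 were 73.7% identical, also with a longest shared run of 20 bases, and Ext1 and Ext2 57.4%, with 12. Overlap with another gene's exons was found for Sulf2 (Ncoa3), Hs6st1 and Gpc1, in each case on the opposite strand.

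Chchd2, the gene of MNRR1, was at 4.85% of its WT level in KO libraries, which fits the labels of all 6 libraries. Levels are given as CPM, counts scaled to library size with TMM factors. Total counts ran from 33226463 to 40983999 per library. The keratin genes Krt8, Krt18 and Krt19 and the transcription factor gene Wt1 were abundant in both genotypes, while Epcam averaged 2.43 CPM in KO and 2.28 CPM in WT, Cdh1 averaged 0.475 and 0.581 CPM, and Pax8 had 3 counts in KO and 34 in WT libraries. Krt7 had 10729, 10863 and 10741 counts in WT and 2568, 3847 and 2948 in KO replicates 1 to 3. Msln had 10204, 9530 and 10660 counts in WT and 3487, 4459 and 4429 in KO replicates 1 to 3. The 9 epithelial and ovarian markers summed to between 1891 and 1924 CPM in KO and between 2455 and 2634 CPM in WT libraries. Of the 8 tested among them, 1 was called higher and 4 lower. The 5 fibroblast markers, nearly all of it Dcn, summed to 449 to 491 CPM in KO and 490 to 527 CPM in WT libraries, with 1 of 4 tested markers called higher and 1 lower. Thy1 had 0 counts in KO and 246 in WT libraries, and the mean level of Pdgfrb was 4.75 CPM in KO against 1.08 CPM in WT. The 6 immune markers summed to at most 6.61 CPM and the 5 endothelial markers to at most 6.20 CPM in any library, and the T cell marker Cd3e was at 0 in all 6. The part of these shifts in the values below was not tested. In bulk RNA, fewer cells that express a gene and less of its RNA per cell cannot be told apart. KO replicate 2 correlated most with WT libraries (mean r of 0.968 across genes, against 0.958 and 0.954 for KO replicates 1 and 3), and it was the KO library nearest to the WT mean for 6 of the 10 genes.

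Across all 16033 tested genes, 55.7% passed an adjusted p of 0.05 between KO and WT in edgeR's quasi-likelihood test with Benjamini-Hochberg adjustment, 27.8% higher and 27.8% lower in KO, and 64.0% had values that did not overlap between genotypes. All 10 heparan sulfate genes were counted well enough to be tested. Of them, 2 were called higher, 5 were called lower, 3 were not called, and 8 had no overlap. With scaling by library totals the split was 3 higher and 3 lower. Their median log2 ratio of KO over WT was -0.14, against 0.01 for all tested genes. A change of at least 2-fold was seen for 1 of the 10, Sulf1, where 14.1% of all tested genes were called with a change of that size.

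**Figure D1:**
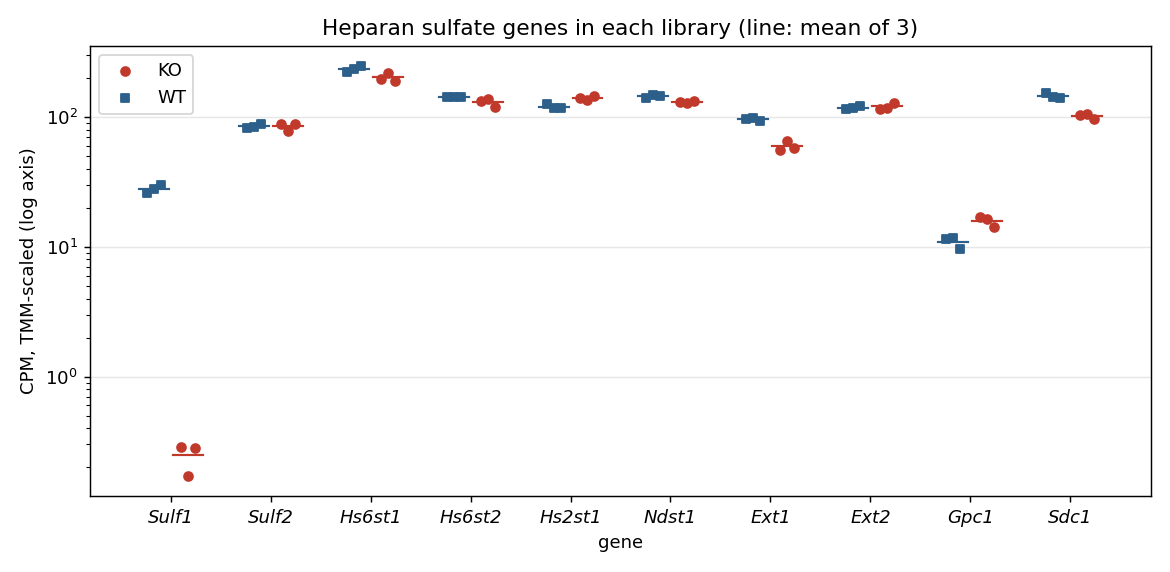
Level of each of the 10 genes in each library, in CPM on a log axis, with blue squares for WT, red circles for KO and a line at the mean of 3 libraries. Sulf1 drops from between 26.2 and 30.2 CPM in WT to between 0.172 and 0.286 CPM in KO libraries, while the other 9 genes stay within a factor of 2 of their WT level.

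The endosulfatase Sulf1 (ENSMUSG00000016918, chromosome 1, positions 12692277 to 12861192 on the plus strand) acts on the finished chain outside the cell. Its counts were 916, 940 and 1200 in WT replicates 1 to 3 and 10, 7 and 11 in KO replicates 1 to 3. Each KO count is above 3, the level that an observed count of 0 still allows. Reads were thus assigned to Sulf1 in every KO library, and whether some of them were misassigned was not tested. The level was 28.1 ± 2.03 CPM in WT and 0.247 ± 0.0652 CPM in KO libraries (SD, n = 3 each), or 0.881% of WT. The log2 ratio was -6.82 (SE 0.16), the 30th greatest of 16033 in absolute size. From summed counts at equal scaled depth, WT held 115 times as much as KO, with a 95% counting interval of 79.5 to 173 that covers counting error only.

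Sulf2 (ENSMUSG00000006800, chromosome 2, positions 166073089 to 166155663 on the minus strand) encodes the other endosulfatase, with the same substrate. It was at 82.5, 84.4 and 88.9 CPM in WT replicates 1 to 3 and at 88.5, 78.9 and 88.8 CPM in KO replicates 1 to 3. The genotypes overlapped, with KO replicate 2 below every WT library, and the log2 ratio was 0.00 (SE 0.06). Reads of Sulf2 and of its opposite-strand neighbour Ncoa3 cannot be told apart where their exons overlap unless the counting used strand, which the sources used here do not state. Ncoa3 counts were 2868, 2696 and 3458 in WT and 4749, 4823 and 5207 in KO libraries.

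Per kilobase of annotated exon, Sulf2 was the more abundant endosulfatase transcript already in WT libraries. Sulf1 made up 14.2%, 14.6% and 15.01% of the summed level of the pair in WT replicates 1 to 3 and 0.168%, 0.113% and 0.166% in KO replicates 1 to 3. The summed level was 17.01 ± 0.740 CPM per kilobase in WT and 14.6 ± 0.967 CPM per kilobase in KO libraries (SD, n = 3 each), which is 85.6% of WT. The near loss of Sulf1 thus left most of the pair's summed transcript level in place. Lengths enter these shares: with the longest transcript of each gene in place of all its exons, Sulf1 was 21.2% of the pair in WT and 0.234% in KO libraries.

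**Figure D2:**
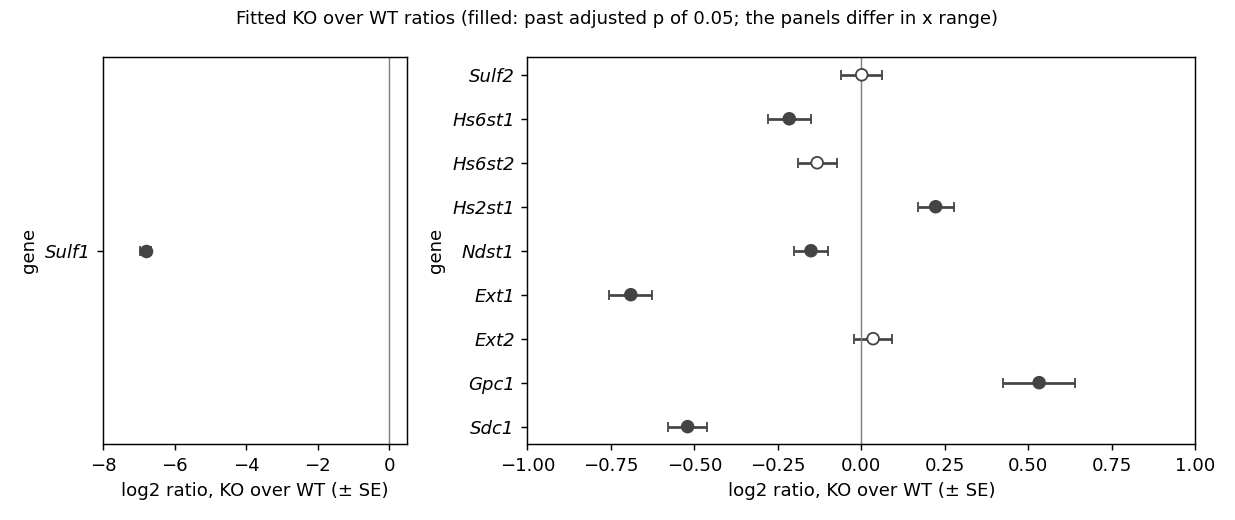
Fitted log2 ratio of KO over WT for each gene, with its standard error. Filled points passed an adjusted p of 0.05 over all tested genes, and the left panel, for Sulf1 alone at -6.82, spans a wider range than the right panel, where the values lie between -0.69 for Ext1 and 0.53 for Gpc1.

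The 4 sulfotransferase genes of the set had log2 ratios between -0.22 and 0.22. Hs6st1, a 6-O-sulfotransferase gene (ENSMUSG00000045216), was at 224, 235 and 247 CPM in WT and 197, 220.4 and 191 CPM in KO replicates 1 to 3. All KO values lay below all WT values, with KO replicate 2 close to the lowest WT library, and the log2 ratio was -0.22 (SE 0.06). In edgeR's test the adjusted p was 0.0690 when KO replicate 1 was omitted and 0.0653 when WT replicate 3 was, so neither subset gave a call. Library totals in place of TMM gave a ratio of -0.10, also not called.

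Hs6st2 (ENSMUSG00000062184), the X-linked relative of Hs6st1, was at 144, 143 and 144 CPM in WT and 133, 139 and 121 CPM in KO replicates 1 to 3. The genotypes did not overlap, but the log2 ratio of -0.13 (SE 0.06) was not called, and it was called without KO replicate 2 (-0.18, adjusted p = 0.00330 in edgeR's test). Without KO replicate 3 the ratio was -0.08. The third family member, Hs6st3, had 9 counts in WT libraries and 0 in KO libraries. Hs6st1 formed 69.7% ± 0.968 of the family's level per kilobase in WT and 68.5% ± 0.819 in KO libraries (SD, n = 3 each), and the values of the genotypes overlapped.

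Hs2st1 (ENSMUSG00000040151) encodes the only 2-O-sulfotransferase of heparan sulfate and was one of the 2 genes called higher. It was at 126, 117 and 117 CPM in WT and 141, 135 and 145 CPM in KO replicates 1 to 3, without overlap, and the log2 ratio was 0.22 (SE 0.05). With library totals the ratio was 0.34.

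Ndst1 (ENSMUSG00000054008) encodes the bifunctional enzyme that removes acetyl groups and adds N-sulfate, the step on which later sulfation depends. It was at 140, 150 and 145 CPM in WT and 131, 128 and 133 CPM in KO replicates 1 to 3, without overlap. The log2 ratio was -0.15 (SE 0.05), and this call was the least steady of the 7. In edgeR's test, omission of KO replicate 1 gave an adjusted p of 0.0768, of WT replicate 2 a value of 0.106 and of WT replicate 3 a value of 0.0555. Upper quartile scaling (ratio -0.10) and library totals (-0.03) gave no call either.

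The 2 subunits of the chain polymerase did not move together. Ext1 (ENSMUSG00000061731) was at 97.1, 98.9 and 93.5 CPM in WT and 56.1, 65.2 and 58.1 CPM in KO replicates 1 to 3, well apart, with a log2 ratio of -0.69 (SE 0.06). Ext2 (ENSMUSG00000027198) was at 115, 118 and 121 CPM in WT and 115, 118 and 130 CPM in KO replicates 1 to 3, with overlap, KO replicate 3 above every WT library, and a log2 ratio of 0.04 (SE 0.06). Their proteins work as a complex. Per kilobase of exon, Ext1 stood at 0.765, 0.762 and 0.699 of the Ext2 level in WT replicates 1 to 3 and at 0.441, 0.501 and 0.406 of it in KO replicates 1 to 3, and the ranges of this ratio did not overlap. With the longest transcript of each gene as length, the ratio was 0.409, 0.408 and 0.374 in WT replicates 1 to 3. In KO replicates 1 to 3 it was then 0.236, 0.268 and 0.217, so its size depends on the lengths used. With library totals Ext2 was called higher at 0.16 (adjusted p = 0.0483 in edgeR's test).

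The 2 core protein genes of the set went opposite ways. Sdc1 (ENSMUSG00000020592), the gene of the transmembrane proteoglycan syndecan-1, was at 155, 143 and 142 CPM in WT and 104, 107 and 96.3 CPM in KO replicates 1 to 3, with a log2 ratio of -0.52 (SE 0.06). Gpc1 (ENSMUSG00000034220), the gene of the lipid-anchored glypican-1, was at 11.5, 11.8 and 9.57 CPM in WT and 16.9, 16.3 and 14.4 CPM in KO replicates 1 to 3, with a log2 ratio of 0.53 (SE 0.11). In both genes the genotypes were apart.

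By level per kilobase of exon in WT libraries, the order was Hs6st1 (42.5), Sdc1 (38.5), Hs6st2 (18.4), Ndst1 (17.5), Ext2 (16.1), Hs2st1 (14.6), Sulf2 (14.5), Ext1 (11.9), Sulf1 (2.48) and Gpc1 (2.12), in CPM per kilobase. Neighbours in this order overlapped for Hs6st1 with Sdc1 and for Hs2st1 with Sulf2. In KO libraries Hs6st1 (36.6) and Sdc1 (26.8) again led, and Hs2st1, Hs6st2, Ext2 and Ndst1 followed between 17.1 and 15.8, each overlapping the next. Sulf1 was last in KO at 0.0219 CPM per kilobase, below Gpc1 at 3.07. With the longest transcript as length, Ext2 (31.7) ranked above Ndst1 (22.4) in WT libraries. In KO libraries Ext2 (32.5) then overlapped Sdc1 (32.4), and Hs2st1 (22.7) and Ndst1 (20.2) lay below Hs6st2 (30.1) without overlap. The ranks from Sulf2 down were as given.

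Beyond these 10 genes, 8 further lists held 103 genes of the pathway, of its neighbouring chondroitin sulfate branch and of heparin-binding factors, and 102 of them matched the table. Of these, 77 were tested and 52 were called (67.5%, beside 55.7% of all tested genes), 25 higher and 27 lower, with a median log2 ratio of -0.05. The lists were chosen with earlier results of these data known, so this share is a description. Another 6 of the 102 genes had no count in any library. The genes named from each list are those with the greatest changes, by a fixed rule, and their adjusted p-values come from edgeR's quasi-likelihood test.

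**Figure D3:**
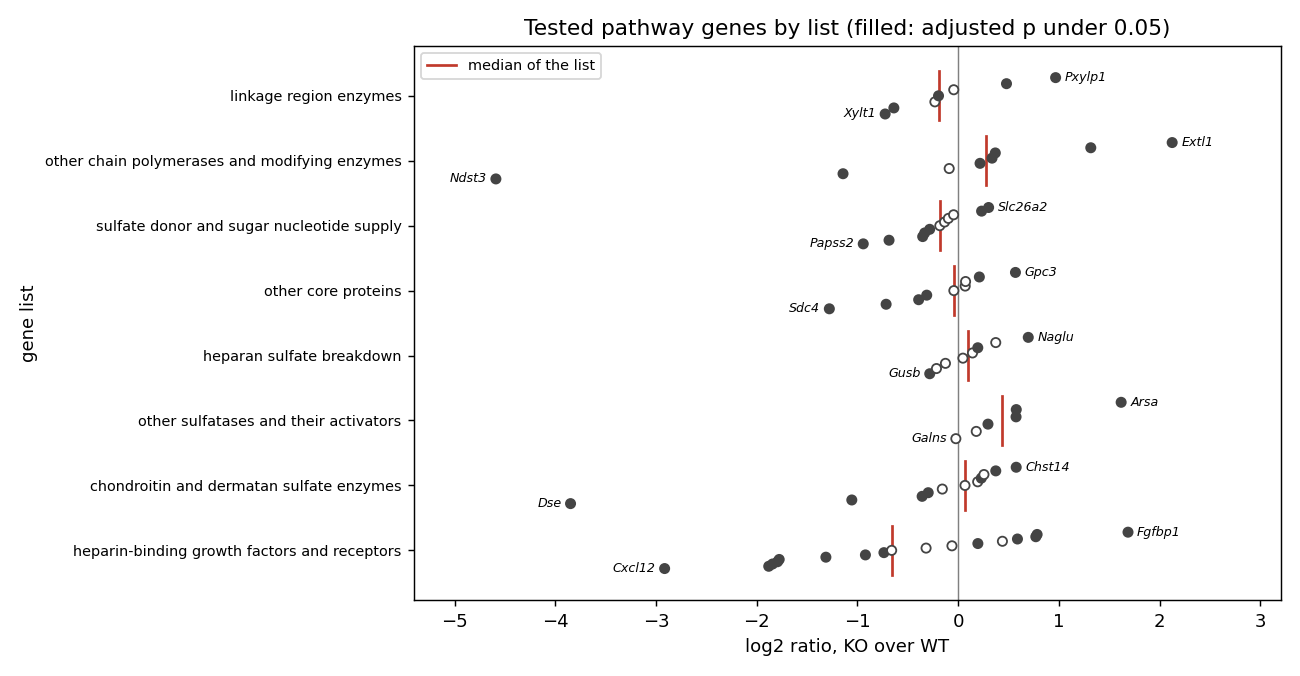
Log2 ratio of KO over WT for each tested gene of the 8 lists, filled where the adjusted p was under 0.05, with a red line at each list's median and the lowest and highest gene of each list named. Heparin-binding growth factors and receptors have the lowest median (-0.66), and the sulfatases other than Sulf1 and Sulf2, with their activators, the highest (0.44).

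Among the 7 linkage region genes, 2 rose and 3 fell. Xylt1 and Xylt2, which encode the enzymes that start every heparan and chondroitin sulfate chain, went opposite ways. Xylt1 fell from 21.4 ± 0.585 to 13.0 ± 1.26 CPM (log2 ratio -0.72, adjusted p = 5.77e-05), and Xylt2 rose from 11.3 ± 1.41 to 15.7 ± 1.88 CPM (0.48, adjusted p = 0.00558; SD, n = 3 each). Xylt1 was 44.1% of their summed level per kilobase in WT and 25.5% in KO libraries. B3galt6, the gene of a linkage galactosyltransferase, fell by 0.64, and Pxylp1, whose product is a phosphatase acting on the linkage xylose, rose by 0.97 on the log2 scale.

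Of 8 tested polymerases and modifying enzymes outside the set, 5 rose and 2 fell, and 7 of the 15 listed were below the filter. Extl1, a gene of the exostosin-like family, had 73, 73 and 90 counts in WT and 371, 376 and 334 counts in KO replicates 1 to 3, and it rose to 9.49 ± 1.03 CPM (log2 ratio 2.12, adjusted p = 8.00e-07). Ndst2, a relative of Ndst1, rose by 0.37. Glce, chosen after its value was seen, encodes the epimerase that acts between N-sulfation and 2-O-sulfation, and it rose by 0.34, beside Hs2st1 at 0.22. Ndst3, chosen after its value was seen, had 29, 29 and 42 counts in WT and 0, 2 and 2 counts in KO replicates 1 to 3.

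The 3-O-sulfotransferases place the rarest sulfate group and differ in the ligand sites they make. Hs3st1, the gene of the isoform known for the antithrombin-binding site, had 1132, 1161 and 1297 counts in WT and 476, 746 and 502 counts in KO replicates 1 to 3. It fell from 33.1 ± 1.02 to 14.96 ± 2.93 CPM (log2 ratio -1.14, adjusted p = 2.07e-05). Hs3st3b1 rose from 1.19 ± 0.332 to 2.94 ± 0.0465 CPM (1.32, adjusted p = 4.54e-04). Summed per kilobase over the 7 genes, the family in KO libraries stood at 48.5% of WT, and Hs3st1 was 98.3% of it in WT and 91.4% in KO libraries. Hs3st2, Hs3st4 and Hs3st5 had no count in any library.

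Of 11 genes that supply the sulfate donor and the sugar nucleotides, 2 rose and 5 fell. Ugdh, whose enzyme makes UDP-glucuronic acid for the chain, fell from 216 ± 9.01 to 134 ± 6.10 CPM (log2 ratio -0.69, adjusted p = 3.58e-06). Papss2, a gene of the sulfate donor PAPS, fell from 12.7 ± 1.15 to 6.59 ± 0.457 CPM (-0.94, adjusted p = 4.10e-05). Its relative Papss1, chosen after its value was seen, was the more abundant and rose from 54.7 ± 3.56 to 64.2 ± 4.42 CPM (0.23, adjusted p = 0.0153), but it was not called on omission of KO replicate 1 (adjusted p = 0.0623) or WT replicate 3 (0.0809). The nucleotide sugar transporter genes Slc35a3 and Slc35d1 fell by 0.35 and 0.33, and with library totals by 0.23 and 0.21.

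Core protein genes other than Sdc1 and Gpc1 gave 2 rises and 4 falls among 9 tested. Sdc4, the gene of syndecan-4, had the greatest change, from 446 ± 30.4 to 184 ± 23.0 CPM (log2 ratio -1.28, adjusted p = 1.72e-06). Hspg2, the gene of the basement membrane proteoglycan perlecan, fell from 883 ± 22.5 to 538 ± 3.201 CPM (-0.72, adjusted p = 1.35e-06), and Agrn, the gene of agrin, fell by 0.39. Gpc3, the gene of glypican-3, rose from 211 ± 1.17 to 313 ± 29.2 CPM (0.57, adjusted p = 3.87e-05). Within each family the members differed. Gpc4, chosen after its value was seen, fell (log2 ratio -0.31, adjusted p = 0.0222), unlike Gpc3, and Sdc2, likewise chosen, was not called (0.07, adjusted p = 0.347). Gpc4 was not called with upper quartile scaling (adjusted p = 0.0514), with library totals (0.145), or on omission of KO replicate 1 (0.0642), WT replicate 1 (0.0924) or WT replicate 3 (0.0874), and Sdc2 was called higher with library totals (0.19, adjusted p = 0.0259).

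Summed per kilobase, the 4 syndecans were at 229 ± 13.5 CPM per kilobase in WT and 115 ± 9.62 in KO libraries, and the 6 glypicans at 85.7 ± 0.756 in WT and 124 ± 10.8 in KO libraries (SD, n = 3 each). The KO sums were 50.2% and 144% of WT. These sums were mostly those of Sdc4 and Gpc3, which made up 76.6% of the syndecans and 91.6% of the glypicans in WT libraries, while Sdc1 contributed 16.8% and Gpc1 2.48%. Neither sum overlapped between genotypes. The sums were formed after the values were seen and were not tested.

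**Figure D4:**
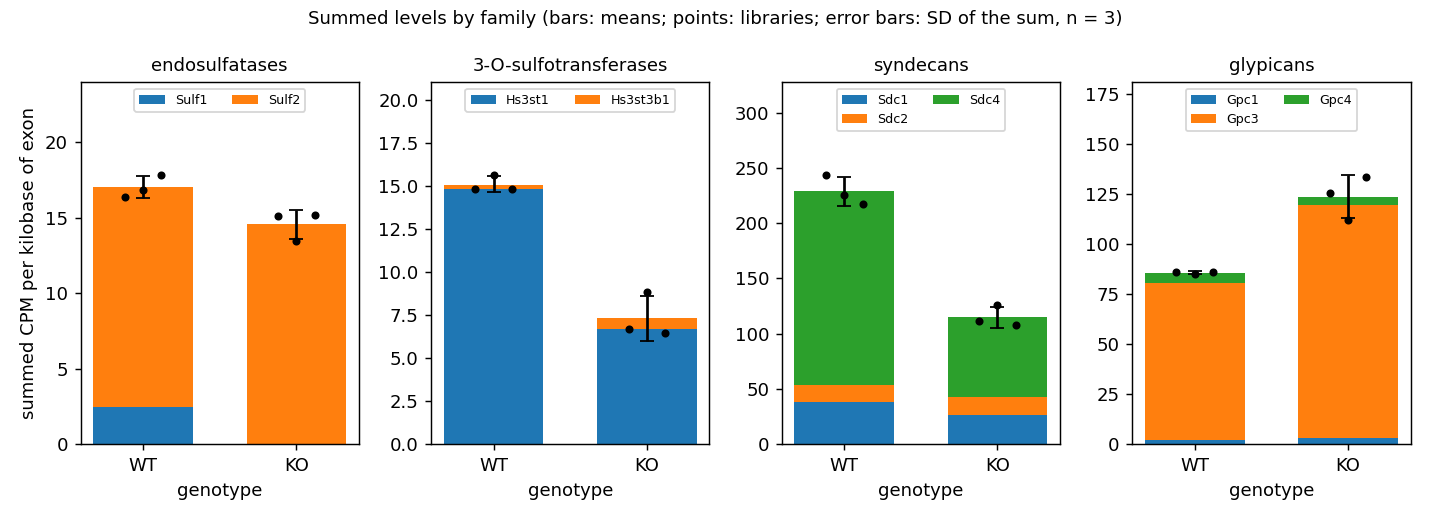
Summed level per kilobase of exon in WT and KO libraries for endosulfatases, 3-O-sulfotransferases, syndecans and glypicans, with colours for genes of at least 1% of the family, points for single libraries and error bars for the SD of the sum. The syndecan and 3-O-sulfotransferase sums in KO are at 50.2% and 48.5% of WT, the glypican sum is at 144%, and the endosulfatase sum is at 85.6%.

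Of 6 tested genes on the list of other sulfatases and their activators, 4 rose and 0 fell, with a median log2 ratio of 0.44. Of all tested genes, 27.8% were called higher. The rises were those of Arsa, Arsk, Sumf1 and Sumf2, and the other 2 tested genes, both of sulfatases, were not called. Arsa, whose sequence around the signature is given above, rose from 10.4 ± 0.806 to 32.1 ± 6.34 CPM (log2 ratio 1.62, adjusted p = 7.84e-06), and Arsk, the gene of a lysosomal glucuronate-2-sulfatase, rose by 0.57. Sumf1, the gene of the enzyme that makes the formylglycine of these active sites, Sulf1 and Sulf2 included, rose from 23.1 ± 0.531 to 34.4 ± 1.38 CPM (0.58, adjusted p = 3.22e-05), and its relative Sumf2 rose by 0.30. Arsj, chosen after its value was seen and below the filter, had 12, 13 and 10 counts in WT and 0 in each KO library.

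Of 8 tested genes of heparan sulfate breakdown in the lysosome, 2 rose and 1 fell. Naglu, the gene of an N-acetylglucosaminidase, rose from 26.8 ± 1.69 to 43.5 ± 8.86 CPM (log2 ratio 0.70, adjusted p = 0.00170). Gusb, the gene of beta-glucuronidase, fell by 0.28. With library totals the ratio of Gusb was -0.16. Hpse, the gene of heparanase, which cuts chains outside the cell, had 18 counts in WT and 13 in KO libraries and was not tested.

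Chondroitin and dermatan sulfate chains use the same linkage sugars and donor. Of 11 tested genes, 3 rose and 4 fell. Dse, which encodes a dermatan sulfate epimerase, had 78, 62 and 83 counts in WT and 3, 9 and 4 in KO replicates 1 to 3, a fall from 2.05 ± 0.203 to 0.137 ± 0.0736 CPM (log2 ratio -3.85, adjusted p = 5.72e-06). Dsel, a relative of Dse on the same list chosen after its value was seen, had 370, 356 and 466 counts in WT. In KO replicates 1 to 3 Dsel had 464, 518 and 449 counts. Chst12, a chondroitin 4-O-sulfotransferase gene, fell from 105 ± 4.47 to 50.5 ± 1.90 CPM (-1.06, adjusted p = 2.58e-07). Chst14, the dermatan 4-O-sulfotransferase gene, rose by 0.58. Ust, the gene of their 2-O-sulfotransferase, rose by 0.37, with an adjusted p of 0.0214. Omission of KO replicate 3 gave 0.22 and an adjusted p of 0.0621, and omission of WT replicate 1 or of WT replicate 3 gave adjusted p-values of 0.0895 and 0.0805.

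Heparin-binding growth factors and receptors showed 8 falls and 5 rises among 17 tested genes, with a median log2 ratio of -0.66. The fibroblast growth factor genes Fgf18 and Fgf5 fell, with log2 ratios of -1.79 and -1.78, and the receptor gene Fgfr3 fell from 40.5 ± 1.49 to 10.98 ± 0.980 CPM (log2 ratio -1.88, adjusted p = 5.01e-08). Fgf18 had 1693, 1748 and 2066 counts in WT and 420, 824 and 445 in KO replicates 1 to 3, so KO replicate 2 lay nearer to WT. The chemokine gene Cxcl12 fell from 1.60 ± 0.458 to 0.210 ± 0.0931 CPM (-2.91, adjusted p = 8.38e-05). The genes named here by the rule all fell. The greatest rise of the list was that of Fgfbp1, chosen after its value was seen (log2 ratio 1.69). It had 203, 208 and 245 counts in WT and 677, 735 and 811 in KO replicates 1 to 3.

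Among 10477 other genes of at least 5 CPM in the higher genotype, those nearest to the profile of Sulf1 over the 6 libraries were Sgce, Hdgfl3, Bex1, Gnai1 and Lin28b, at distances of 0.139 to 0.661 on the log2 scale. Sulf1 was chosen for its fall, so this is a description, and the prior count of 2 limits how far a gene near 0 counts can drop. Of these 5, Hdgfl3 was also closest in level, with 1006, 1047 and 1158 counts in WT and 11, 6 and 14 in KO replicates 1 to 3. A window of 1 Mb to each side of Sulf1 on chromosome 1, chosen after its values were seen, held 8 tested genes, Sulf1 included. The nearest, Slco5a1, was at 12.9 CPM in WT and 6.12 CPM in KO libraries (log2 ratio -1.07, adjusted p = 4.42e-05 in edgeR's test). By the same test Ncoa2 rose by 0.73 (adjusted p = 3.61e-05) and Lactb2 fell by 0.43 (adjusted p = 0.00373). Tram1 was not called (-0.08, adjusted p = 0.185), and the rest were unnamed gene models. Over all tested genes, 55.7% were called.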

How the data were processed

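The authors deposited unnormalized read counts for each Ensembl gene. The submitters' processing notes name STAR 2.5.2b, Trimmomatic 0.36, bcl2fastq 2.17, DESeq2 and Subread 1.5.2, and the build GRCm38 (mm10). Annotation release, strand setting and multi-mapping rules: not given in the sources used here. Symbols, lengths and sequences came from GENCODE M21 (GRCm38), which matched 49056 of 49315 identifiers.

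Counts were tested with edgeR 4.0.16 (R 4.3.3): filterByExpr at a minimum count of 10, TMM scaling, a robust quasi-likelihood fit with genotype as its only term over 6 libraries, and Benjamini-Hochberg adjustment over 16033 genes. The script was tested on simulated data. Levels are TMM-scaled CPM. Per-kilobase values divide CPM by the union of annotated exons. Ratios are fitted log2 values of KO over WT. At these depths, 3 counts are 0.0732 to 0.0903 CPM in 1 library.

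Alternatives were 3 scalings, 2 filters, DESeq2 1.42.0, limma 3.58.1 (voom), the replicate number as a block, and omission of each library. Named genes were the 10 heparan sulfate genes, Chchd2, per list up to 4 called genes with the greatest change (mean CPM from 1 upward in either genotype), and the 5 profiles nearest to Sulf1. An item that falls under this rule is not reported here. Glce, Ndst3, Papss1, Gpc4, Sdc2, Arsj, Dsel (counts only), Fgfbp1, Slco5a1, Ncoa2, Lactb2 and Tram1 were named outside the rule, after their values were seen. Cell type markers, Ncoa3 and genes with few or no counts were also named. Members and lists were chosen with earlier results of these data known.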

Additional observations from a re-analysis of the deposited data

How the results depend on the processing

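Over 14 alternatives, 121 of 140 refits of the 10 heparan sulfate genes kept direction and side of the threshold. For the pathway genes named by the fixed rule, 431 of 434 refits did so. Genes chosen after their values were seen are outside this count, and among them Gpc4, Papss1 and Sdc2 did not keep the same call throughout. Sulf1 ranged from -6.94 to -6.61 on the log2 scale. Sulf2, at 0.00, took the other sign with DESeq2 size factors (-0.0060), no filter (-0.0082), DESeq2 (-0.0061) and limma voom (-0.0016), and ranged from -0.03 to 0.12 over the alternatives, with -0.0283, -0.0245, -0.0233 and -0.0103 without KO replicate 3, WT replicate 1, KO replicate 1 and WT replicate 2 and up to 0.0538 without KO replicate 2. Ext2 ranged from -0.0181 without KO replicate 3 to 0.0710 without KO replicate 1 when single libraries were left out. Library totals moved the median log2 ratio of all genes from 0.01 to 0.13 and gave 63.7% of calls as higher, so changes of that size are relative to TMM scaling. Between 5 and 8 of the 10 genes and between 45 and 59 of the other pathway genes were called when 1 library was left out. With exon length replaced by the longest transcript, Sulf1 was 21.2% of the endosulfatase level in WT and 0.234% in KO. With the replicate block, 7 of the 10 genes, 53 of the other pathway genes and 8878 genes in all were called. Libraries with the same number shared little deviation (r of -0.06, 0.05 and 0.03 for numbers 1 to 3), so the numbers were not treated as pairs.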
